A study of Homo sapiens with 16 samples.

Results

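The ATP-binding cassette (ABC) genes were examined in RNA sequencing of MDA-MB-231 and SUM159 cells, which are established lines of human triple-negative breast cancer (SUM159 is SUM159PT in the sample titles). A member was any gene of the deposited count table that is marked protein-coding and carries a symbol of subfamilies ABCA to ABCG, except ABCA1 and ABCG1, which gave 43 of 58735 genes. The 4 groups were MDA-MB-231 with YES1i, MDA-MB-231 with DMSO, SUM159 with YES1i and SUM159 with DMSO, with 4 libraries each. YES1i is CH6953755, given at 8 uM for 48 h, which inhibits YES1, a tyrosine kinase of the Src family. DMSO is its solvent. All cells are labelled wild type. MDA-MB-231 was grown in RPMI and SUM159 in Ham's F12, so line and medium cannot be told apart. The series calls the libraries of a group technical replicates, so p-values measure only the spread between libraries. The series concerns mitosis and the response to taxanes, drugs that some ABC exporters carry.

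ABC proteins bind and hydrolyse ATP with a pair of conserved nucleotide-binding domains, and most use that energy to move substrates across a membrane. Members of the ABCB, ABCC and ABCG subfamilies export drugs and drug conjugates, ABCA and ABCG proteins move lipids and sterols, and ABCD proteins serve peroxisomes and lysosomes. ABCE1 and the ABCF proteins have no membrane-spanning part and act on ribosomes. In tumour cells the family is known mainly for drug efflux, above all by ABCB1, ABCC1 and ABCG2.

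Library totals lay between 15876171 and 36261542 counts, and the level that a count of 0 allows (3 counts; counting error only) was 0.0859 to 0.194 CPM over the libraries. CPM is the count per 1e6 counts of the library, scaled with edgeR's TMM factors. Vimentin and ZEB1 summed to 791 to 838 CPM with YES1i and 867 to 895 CPM with DMSO in MDA-MB-231, and to 2470.4 to 2541 CPM with YES1i and 1928 to 2081 CPM with DMSO in SUM159. In MDA-MB-231 vimentin averaged 750 CPM with YES1i and 827 CPM with DMSO, while ZEB1 averaged 68.7 and 55.4 CPM. The sum of the epithelial markers KRT8, KRT18, EPCAM, CDH1 and GATA3 was 785 to 886 CPM with YES1i and 1166 to 1263 CPM with DMSO in MDA-MB-231, and 339.8 to 386 CPM with YES1i and 421 to 450.3 CPM with DMSO in SUM159. By the test given below, 2 of these 5 rose and 2 fell in SUM159, while 0 rose and 3 fell in MDA-MB-231. ESR1, PGR and ERBB2 summed to 98.1 to 126 CPM over all libraries, and nearly all of this was ERBB2. Group means were 108 to 118 CPM for ERBB2, at most 0.608 CPM for ESR1 and at most 0.0340 CPM for PGR. Leukocyte markers summed to 2.29 to 2.80 CPM with YES1i and 0.646 to 1.33 CPM with DMSO in SUM159. In MDA-MB-231 they summed to 1.03 to 2.40 CPM with YES1i and 2.09 to 2.46 CPM with DMSO. Hepatocyte markers summed to at most 0.475 CPM. ADIPOQ and PLIN1, of which 1 was at 0 in each group, summed to 2.87 to 4.67 CPM with YES1i and 0.459 to 0.710 CPM with DMSO in SUM159, and to at most 1.78 CPM in MDA-MB-231. Endothelial markers summed to 7.85 to 9.31 CPM with YES1i and 2.19 to 4.70 CPM with DMSO in MDA-MB-231, and to at most 1.60 CPM in SUM159. Mitochondrial rRNA held 1.33% of counts with YES1i and 0.644% with DMSO in MDA-MB-231. In SUM159 it held 1.34% with YES1i and 0.731% with DMSO. The part of these shifts in the results was not tested. In bulk RNA a change in every cell and a change in some of the cells cannot be told apart.

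Members took up only 0.141% to 0.172% of the counts of a library, and 34 of the 43 passed the filter on low counts. Per kilobase of gene length, the translation factor ABCF1 was the most abundant member in MDA-MB-231, at 44.3 ± 1.13 CPM per kilobase with YES1i and 59.7 ± 1.30 with DMSO (SD, n = 4). Without division by length ABCC3 led there with YES1i, at 320 CPM against 200.5 CPM for ABCF1. In SUM159 the conjugate exporter ABCC3 led with YES1i at 46.1 ± 1.22 CPM per kilobase, while ABCF1 at 31.3 ± 1.79 and ABCE1 at 29.8 ± 1.06 led with DMSO, with overlapping spreads. Summed over the 43 members, the level was 225 ± 4.33 CPM per kilobase with YES1i and 219.8 ± 1.29 with DMSO in MDA-MB-231. In SUM159 the sums were 212 ± 4.82 with YES1i and 209 ± 8.30 with DMSO. The makeup of the sum differed more than its size. The ABCC subfamily held 28.2% ± 1.53 of it with YES1i and 19.02% ± 0.347 with DMSO in MDA-MB-231, and 42.3% ± 0.225 with YES1i and 29.8% ± 0.481 with DMSO in SUM159. The ABCF subfamily held 28.97% ± 1.20 with YES1i and 37.4% ± 0.826 with DMSO in MDA-MB-231, and 16.7% ± 0.0962 with YES1i and 23.3% ± 0.668 with DMSO in SUM159. The ABCE1 share was 7.09% ± 0.533 with YES1i and 10.7% ± 0.534 with DMSO in MDA-MB-231, and 9.84% ± 1.11 with YES1i and 14.3% ± 0.733 with DMSO in SUM159. The ABCA share was 14.5% ± 0.505 with YES1i and 8.41% ± 0.389 with DMSO in MDA-MB-231. In SUM159 it was 14.5% ± 0.940 with YES1i and 12.2% ± 0.914 with DMSO.

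**Figure D1:**
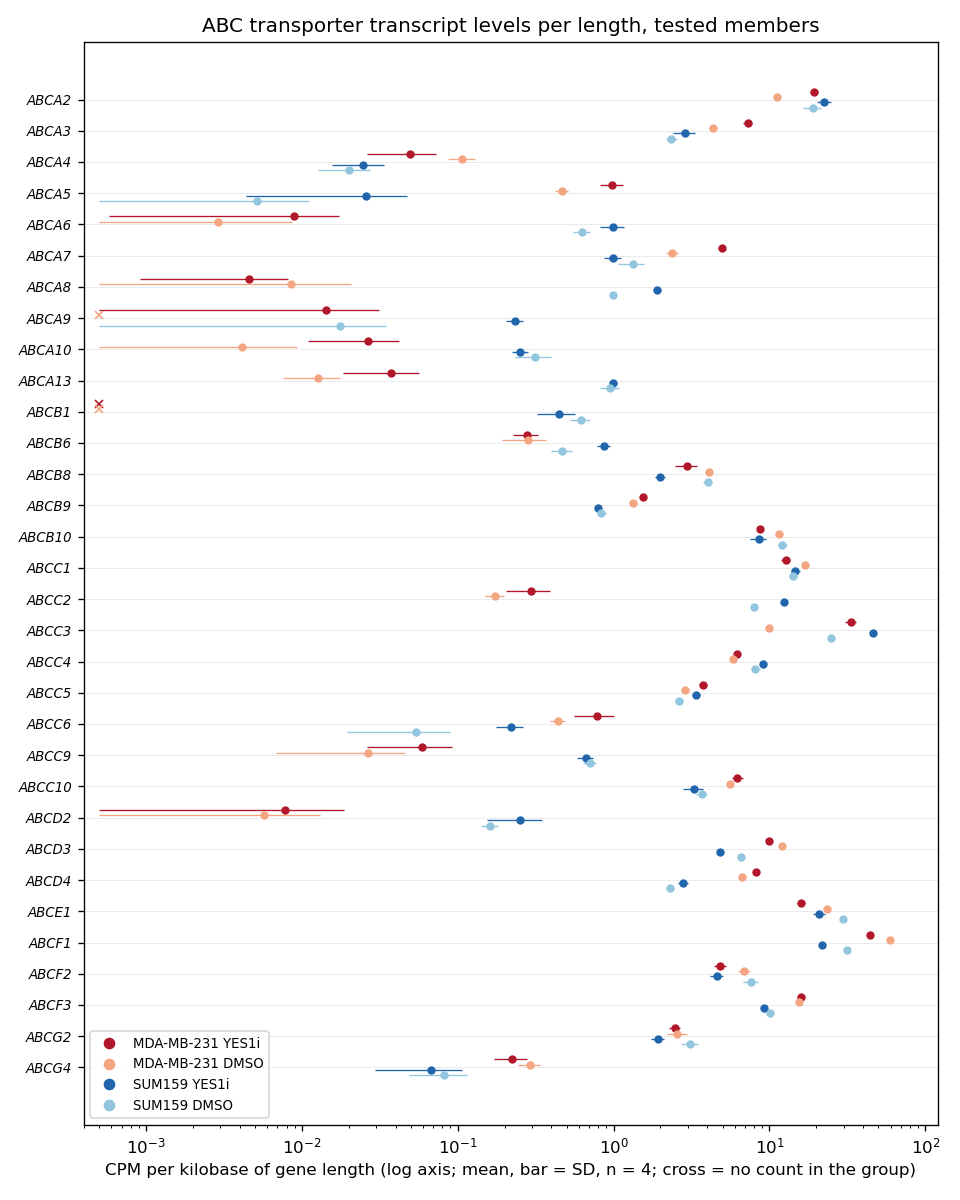
Level of 32 tested members in the 4 groups, as CPM per kilobase of gene length on a log axis (points, mean; bars, SD, n = 4; crosses, no count in the group). ABCF1 and ABCE1 hold the first 2 places with DMSO in both lines and ABCC3 the first place with YES1i in SUM159, while ABCB1 has no count in either MDA-MB-231 group.

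**Figure D2:**
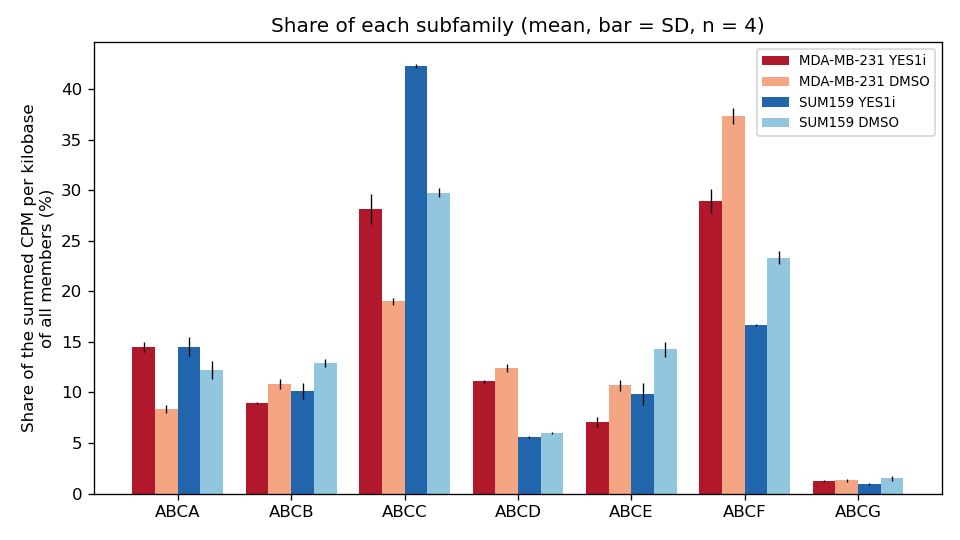
Share of each subfamily in the summed CPM per kilobase of all members, in percent (bars, mean; lines, SD, n = 4). In both lines the ABCC bar is higher and the ABCF bar lower with YES1i than with DMSO, at 28.2% against 19.0% and 28.97% against 37.4% in MDA-MB-231. Most of the ABCC difference lies in ABCC3.

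With YES1i, 14 tested members rose and 9 fell in MDA-MB-231 (edgeR quasi-likelihood test, adjusted p under 0.05), against 26.8% higher and 22.1% lower among all 17647 tested genes. In SUM159, 13 rose and 8 fell, against 25.1% and 26.5% of all tested genes. A change of at least 2-fold was called for 8 members in MDA-MB-231, against 10.1% of all tested genes, and for 4 in SUM159, against 9.92%. Of the 8, ABCA4, ABCA9, ABCA10, ABCA13 and ABCC9 were low, averaging at most 0.917 CPM in either MDA-MB-231 group. The calls of ABCA4, ABCA9 and ABCC9 in that line ended on leaving out some single libraries. Of the 4, ABCA5 averaged 0.339 CPM with YES1i and 0.0681 CPM with DMSO in SUM159. The 34 had a median log2 fold change of 0.13 (MDA-MB-231) and 0.07 (SUM159), beside 0.03 and 0.02 over all genes. ABCB1 had no count in MDA-MB-231 and is among the 34. Without it, and with ABCA9 at the lower bound given below, the MDA-MB-231 median was 0.17. Upper quartile scaling moved the median of all genes in SUM159 to 0.14 and gave 15 members higher and 8 lower there. Of all calls in SUM159, 48.7% were higher, and 63.4% with that scaling.

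Members that rose in both lines numbered 9, namely ABCA2, ABCA3, ABCA5, ABCA9, ABCC2, ABCC3, ABCC5, ABCC6 and ABCD4, and 12.4% of all tested genes did so. Those that fell in both numbered 6, namely ABCB8, ABCB10, ABCD3, ABCE1, ABCF1 and ABCF2, and 14% of all tested genes did so. ABCA7 alone was called in opposite directions, as were 5.17% of all tested genes. By subfamily, 7 of 10 tested ABCA genes rose and 1 fell in MDA-MB-231, and 6 rose and 1 fell in SUM159. Of 8 tested ABCC genes, 5 rose and 1 fell in MDA-MB-231, and 5 rose and 0 fell in SUM159. Of the 4 tested ABCE and ABCF genes none rose and 3 fell in each line.

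**Figure D3:**
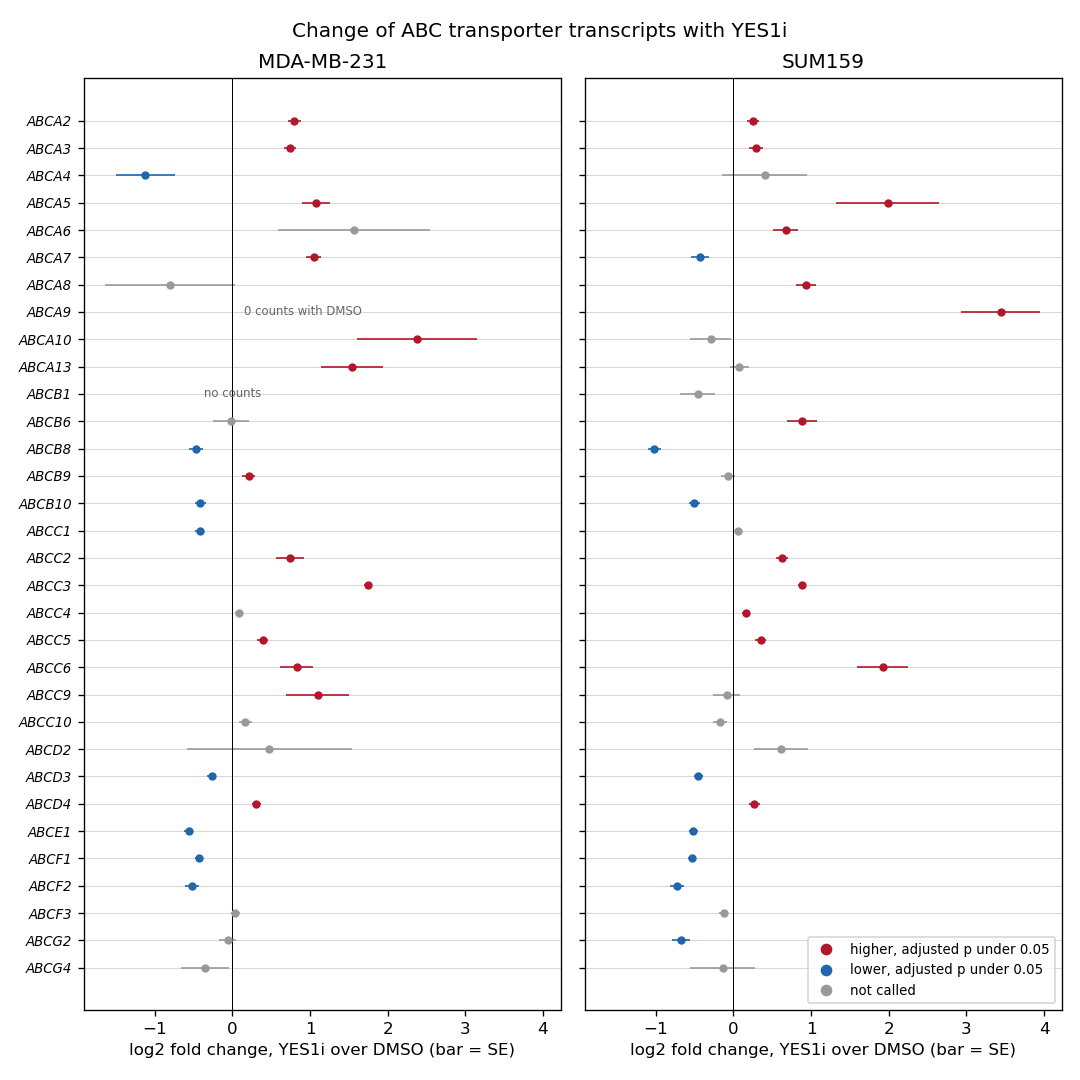
Log2 fold change of 32 tested members with YES1i over DMSO in each line, by subfamily (points, estimate; bars, SE; red, higher and blue, lower at an adjusted p under 0.05; grey, not called). In the MDA-MB-231 panel ABCB1 and ABCA9, without a count with DMSO in that line, have text in place of a point. ABCC3 stands at 1.75 in MDA-MB-231 and 0.88 in SUM159, and the ABCE and ABCF genes other than ABCF3 lie left of 0 in both panels.

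The promoters of some members called in the same direction in both lines are shown so that their sequences can be set side by side. They are the lipid transporters ABCA2 and ABCA3, which rose, and the ribosome factors ABCE1 and ABCF1, which fell. Each sequence runs 5′ to 3′ on the gene's strand, with 250 bases before and 50 after the annotated start, and comes from RefSeq on GRCh38.p14. Capitals mark matches, on either strand, to the letters TGACNNNGC (the antioxidant response element), CACGTG (the E-box) or GCGTG (the core read by the aryl hydrocarbon receptor). The 9-letter match of ABCA3 overlaps a GCGTG match, and none of the other marked matches overlap. The windows are chr9:137028873-137029172 (minus strand), chr16:2340679-2340978 (minus strand), chr4:145098061-145098360 (plus strand) and chr6:30571192-30571491 (plus strand).
ABCA2: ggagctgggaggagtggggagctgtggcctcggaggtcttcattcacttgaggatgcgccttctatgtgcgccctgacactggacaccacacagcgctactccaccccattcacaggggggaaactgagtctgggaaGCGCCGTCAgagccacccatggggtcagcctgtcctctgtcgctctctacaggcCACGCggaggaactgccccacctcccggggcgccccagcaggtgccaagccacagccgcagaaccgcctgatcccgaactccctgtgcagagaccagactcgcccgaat
ABCA3: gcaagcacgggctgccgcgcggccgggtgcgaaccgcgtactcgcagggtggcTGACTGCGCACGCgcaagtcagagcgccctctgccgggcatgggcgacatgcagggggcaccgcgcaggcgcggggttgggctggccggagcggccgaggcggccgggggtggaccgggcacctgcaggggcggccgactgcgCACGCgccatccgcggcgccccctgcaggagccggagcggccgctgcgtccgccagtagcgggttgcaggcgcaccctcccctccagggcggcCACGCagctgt
ABCE1: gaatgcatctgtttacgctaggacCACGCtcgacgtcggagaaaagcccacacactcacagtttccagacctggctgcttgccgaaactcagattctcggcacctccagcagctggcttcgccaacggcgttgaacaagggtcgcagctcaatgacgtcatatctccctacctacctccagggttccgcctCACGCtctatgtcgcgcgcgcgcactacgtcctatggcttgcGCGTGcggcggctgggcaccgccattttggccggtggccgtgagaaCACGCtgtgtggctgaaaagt
ABCF1: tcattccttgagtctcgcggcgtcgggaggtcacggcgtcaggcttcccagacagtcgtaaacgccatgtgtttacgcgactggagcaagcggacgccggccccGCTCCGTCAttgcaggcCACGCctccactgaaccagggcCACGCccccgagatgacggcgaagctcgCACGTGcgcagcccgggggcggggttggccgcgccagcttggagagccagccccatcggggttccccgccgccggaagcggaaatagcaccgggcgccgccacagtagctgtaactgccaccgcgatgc
TGACNNNGC occurred once in ABCA2, starting at base -113 from the start, once in ABCA3 at -197 and once in ABCF1 at -146. GCGTG occurred 4 times in ABCE1, at -226, -59, -17 and 30, 3 times in ABCA3, at -189, -54 and 40, 2 times in ABCF1, at -129 and -107, and once in ABCA2, at -59. CACGTG occurred in ABCF1 at -79. RefSeq promoters were matched for 34 of the 43 members, which are not the same 34 as the tested members. TGACNNNGC was found in 20.6% of these 34 and in 13.6% of all 27305 promoters, CACGTG in 8.82% and 7.43%, GCGTG in 38.2% and 36.3%, and CCAAT, the CCAAT box, in 17.6% and 35.7%. Of 8 matched promoters of members that rose in both lines, 4 held TGACNNNGC, 4 held GCGTG, 1 held CACGTG and 0 held CCAAT. ABCC3, which also rose in both, had no matched promoter. Of 6 matched promoters of members that fell in both, 1 held TGACNNNGC, 5 held GCGTG, 1 held CACGTG and 2 held CCAAT. The median GC content was 65.0% in the promoters of members that rose and 67.0% in those of members that fell. These are matches of letters, not measured binding.

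Among drug and conjugate exporters, ABCC3 had the largest change in MDA-MB-231 and the highest level per kilobase in every group except MDA-MB-231 with DMSO, where ABCC1 was higher. ABCC3, on chr17:50634777-50692252 (hg38, plus strand), is a basolateral exporter of glucuronide conjugates and bile acids. It had 351, 299, 333 and 296 CPM with YES1i in MDA-MB-231, against 93.99, 97.5, 90.7 and 98.8 CPM with DMSO (log2 fold change 1.75, SE 0.06, adjusted p = 2.38e-20). The SUM159 libraries had 455, 444, 427 and 449 CPM with YES1i, against 237, 234, 258 and 231 CPM with DMSO (log2 fold change 0.88, SE 0.05, adjusted p = 5.57e-14). Every YES1i library lay above every DMSO library of its line, and the YES1i libraries of MDA-MB-231 exceeded the DMSO libraries of SUM159. The change was larger in MDA-MB-231, with a difference between lines of 0.86 on the log2 scale (SE 0.08, adjusted p = 5.19e-10). ABCC3 passed the threshold in both lines without any one library, with log2 fold changes of at least 1.70 in MDA-MB-231 and 0.86 in SUM159.

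ABCC1, the broad exporter of glutathione and glucuronide conjugates known as MRP1, went the other way in MDA-MB-231. It had 101, 90.2, 102 and 91.9 CPM with YES1i, against 122, 131, 126 and 135 CPM with DMSO (log2 fold change -0.42, SE 0.06, adjusted p = 4.66e-07). SUM159 cells had 122, 106, 108 and 109 CPM with YES1i and 102, 110.2, 114 and 101 CPM with DMSO (log2 fold change 0.06, SE 0.06, adjusted p = 0.425). The groups of MDA-MB-231 did not overlap, while those of SUM159 did. Between lines the difference was -0.47 (SE 0.08, adjusted p = 3.43e-05). With upper quartile scaling the SUM159 value was 0.18 and passed the threshold.

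ABCC6, a membrane protein that makes cells release ATP and whose loss causes ectopic mineralisation, was low in both lines and rose in both. It had 8.31, 5.90, 5.28 and 4.30 CPM with YES1i in MDA-MB-231, against 3.78, 2.94, 3.23 and 3.37 CPM with DMSO (log2 fold change 0.83, SE 0.21, adjusted p = 0.00188). In SUM159 it had 2.08, 1.44, 1.38 and 1.73 CPM with YES1i, against 0.572, 0.645, 0.367 and 0.0587 CPM with DMSO (log2 fold change 1.92, SE 0.33, adjusted p = 1.47e-05). No DMSO library reached a YES1i library of its line. Counts in SUM159 were 35, 31, 25 and 40 with YES1i and 20, 10, 8 and 1 with DMSO. The difference between lines, -1.10 (SE 0.40, adjusted p = 0.0358), lost its call on leaving out any of 7 libraries, with a highest adjusted p of 0.0927. ABCC6 has near-identical pseudogene copies, and how reads shared with them were counted is not given in the sources used here, so its values are uncertain.

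ABCC2, the apical counterpart of ABCC3, differed between lines far more than with treatment. It averaged 2.33 ± 0.730 CPM with YES1i and 1.36 ± 0.186 CPM with DMSO in MDA-MB-231 (log2 fold change 0.75, SE 0.18, adjusted p = 9.55e-04). The SUM159 means were 96.6 ± 4.11 CPM with YES1i and 62.5 ± 2.41 CPM with DMSO (log2 fold change 0.63, SE 0.07, adjusted p = 4.04e-08). ABCC5, an exporter of cyclic nucleotides, averaged 43.2 ± 2.64 CPM with YES1i and 32.9 ± 2.14 CPM with DMSO in MDA-MB-231 (log2 fold change 0.39, SE 0.07, adjusted p = 2.21e-05). It averaged 38.6 ± 2.36 CPM with YES1i and 30.2 ± 1.98 CPM with DMSO in SUM159 (log2 fold change 0.35, SE 0.07, adjusted p = 9.69e-05), and no difference between lines was called. ABCC4, which exports cyclic nucleotides and prostaglandins, had a log2 fold change of 0.09 in MDA-MB-231 (adjusted p = 0.215) and 0.16 in SUM159 (adjusted p = 0.0131). The SUM159 call of ABCC4 ended when low counts were not filtered (adjusted p = 0.0563) and without DMSO replicate 2 (adjusted p = 0.0593). ABCC10, a transporter known to carry taxanes, averaged 50.4 ± 3.96 CPM with YES1i and 44.9 ± 0.554 CPM with DMSO in MDA-MB-231, and 26.4 ± 3.89 CPM with YES1i and 29.7 ± 2.42 CPM with DMSO in SUM159. It passed the threshold in neither line (log2 fold change 0.17, adjusted p = 0.0921, and -0.17, adjusted p = 0.0917). Its difference between lines of 0.34 (adjusted p = 0.0279) lost the call with RLE scaling, upper quartile scaling and DESeq2. It also lost it on leaving out any of 7 libraries, with adjusted p up to 0.0759. ABCC10 overlaps DLK2 on the opposite strand by 79 exonic bases, and DLK2 fell in both lines.

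ABCB1, or P-glycoprotein, the best-known exporter of taxanes, had no count in any of the 8 MDA-MB-231 libraries. Over the 4 libraries of a group this allows up to 0.0402 CPM with YES1i and 0.0366 CPM with DMSO. The SUM159 libraries had 1.79, 3.30, 3.04 and 2.21 CPM with YES1i and 3.78, 4.13, 3.49 and 2.88 CPM with DMSO (log2 fold change -0.46, SE 0.23, adjusted p = 0.0972). The SUM159 groups overlapped. Without YES1i replicate 2 the value was -0.61 and passed the threshold (adjusted p = 0.0478). ABCB1 overlaps RUNDC3B on the opposite strand with 0 shared exonic bases. ABCG2, or BCRP, an exporter of many drugs and urate, had 11.2, 12.2, 12.5 and 13.8 CPM with YES1i and 14.1, 12.04, 10.7 and 15.00 CPM with DMSO in MDA-MB-231 (log2 fold change -0.06, SE 0.11, adjusted p = 0.692). SUM159 cells had 9.11, 10.2, 10.9 and 8.87 CPM with YES1i, against 17.3, 13.5, 14.2 and 17.04 CPM with DMSO (log2 fold change -0.68, SE 0.11, adjusted p = 1.09e-05). The YES1i libraries of SUM159 were all below its DMSO libraries, while the MDA-MB-231 groups overlapped. Between lines the difference was 0.61 (SE 0.16, adjusted p = 0.00367). In all, 4 of the 9 tested exporters rose and 1 fell in MDA-MB-231, beside 26.8% and 22.1% of all tested genes. In SUM159, 5 rose and 1 fell, beside 25.1% and 26.5%.

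**Figure D4:**
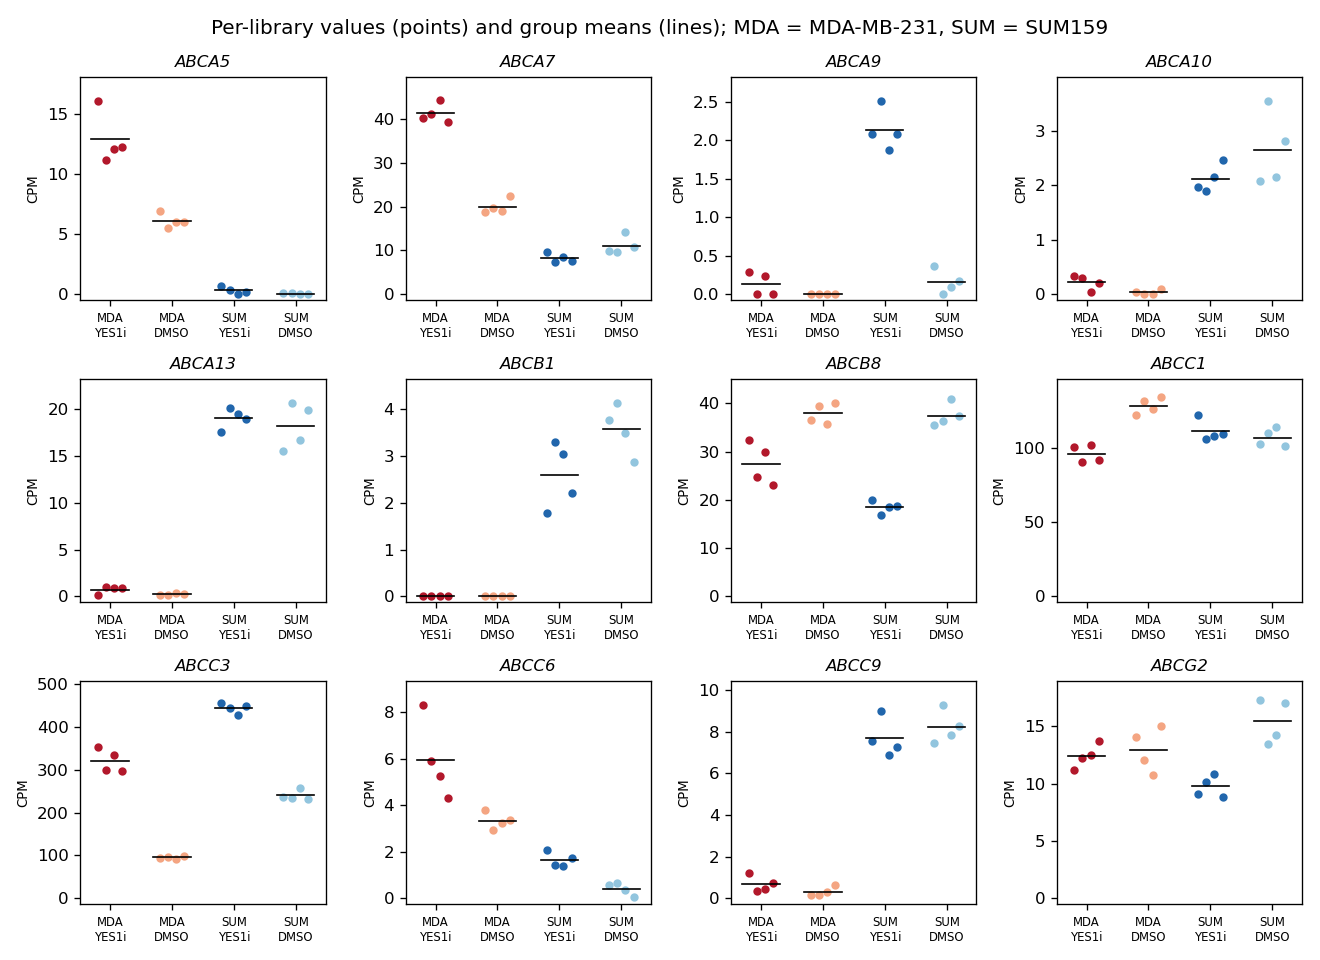
CPM of 12 members in each library (points) with the group mean (lines), in the order MDA-MB-231 YES1i, MDA-MB-231 DMSO, SUM159 YES1i and SUM159 DMSO. ABCC3 separates by treatment in both lines, ABCC1 in MDA-MB-231 and ABCG2 in SUM159, and ABCA7 has YES1i points above DMSO points in MDA-MB-231, at 39.3 to 44.4 CPM against 18.7 to 22.5 CPM.

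Beside 26.8% higher and 22.1% lower among all tested genes in MDA-MB-231, 7 of the 11 tested lipid and sterol transporters rose and 1 fell. Beside 25.1% and 26.5% in SUM159, 6 of the 11 transporters rose and 1 fell. ABCA2, a transporter of endosomes and lysosomes, had the highest level of them per kilobase, and averaged 223 ± 14.2 CPM with YES1i and 128 ± 6.61 CPM with DMSO in MDA-MB-231 (log2 fold change 0.80, SE 0.08, adjusted p = 4.44e-08). SUM159 cells averaged 259 ± 25.7 CPM with YES1i and 218 ± 28.9 CPM with DMSO (log2 fold change 0.25, SE 0.08, adjusted p = 0.013). ABCA3, which loads surfactant lipids into the lamellar bodies of lung cells, averaged 56.7 ± 3.53 CPM with YES1i and 33.9 ± 2.09 CPM with DMSO in MDA-MB-231 (log2 fold change 0.74, SE 0.08, adjusted p = 1.14e-08). In SUM159 it averaged 22.5 ± 3.60 CPM with YES1i and 18.4 ± 1.44 CPM with DMSO (log2 fold change 0.29, SE 0.09, adjusted p = 0.00837). Both changes were larger in MDA-MB-231, by 0.55 (SE 0.11) for ABCA2 and 0.45 (SE 0.12) for ABCA3. The SUM159 call of ABCA2 ended without DMSO replicate 1 (0.20, adjusted p = 0.0534). That of ABCA3 ended without YES1i replicate 1 (0.19, adjusted p = 0.0600).

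ABCA7, a phospholipid transporter linked to phagocytosis, on chr19:1040101-1065572 (plus strand), changed in opposite directions. It had 40.1, 41.2, 44.4 and 39.3 CPM with YES1i in MDA-MB-231, against 18.7, 19.6, 19.02 and 22.5 CPM with DMSO (log2 fold change 1.05, SE 0.10, adjusted p = 3.22e-10). In SUM159 it had 9.64, 7.43, 8.40 and 7.61 CPM with YES1i, against 9.85, 9.55, 14.2 and 10.8 CPM with DMSO (log2 fold change -0.43, SE 0.11, adjusted p = 0.0022). The MDA-MB-231 groups stood well apart, while in SUM159 YES1i replicate 1 reached into the DMSO range. The difference between lines was 1.48 (SE 0.15, adjusted p = 6.60e-09), and it lay between 1.33 and 1.55 on leaving out any one library.

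Members of the subfamily that lie next to each other on chromosome 17 were detected in different lines. ABCA8, ABCA9, ABCA6, ABCA10 and ABCA5 lie in this order between bases 68867292 and 69327244, all on the minus strand. They are close relatives of each other. ABCA5, a protein of late endosomes and lysosomes, was nearly confined to MDA-MB-231, with 16.05, 11.2, 12.1 and 12.3 CPM with YES1i, against 6.88, 5.50, 6.04 and 6.02 CPM with DMSO (log2 fold change 1.08, SE 0.18, adjusted p = 1.47e-05). In SUM159 ABCA5 had counts of 12, 8, 1 and 5 with YES1i, against 5, 2, 0 and 0 with DMSO (log2 fold change 1.99, SE 0.66, adjusted p = 0.014). That SUM159 call rests on few counts. Without YES1i replicate 1 it was 1.45 (adjusted p = 0.0823), without DMSO replicate 1 it was 2.95, and with only the SUM159 libraries fitted the adjusted p was 0.0535.

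The other 4 genes of the cluster were detected mainly in SUM159. ABCA8 averaged 21.4 ± 1.40 CPM with YES1i and 11.2 ± 0.426 CPM with DMSO in SUM159 (log2 fold change 0.94, SE 0.13, adjusted p = 5.44e-07), with 4 counts with YES1i and 8 with DMSO over the MDA-MB-231 libraries (adjusted p = 0.46). ABCA6 averaged 14.02 ± 2.40 CPM with YES1i and 8.85 ± 1.11 CPM with DMSO in SUM159 (log2 fold change 0.67, SE 0.16, adjusted p = 0.00108), with 9 counts with YES1i and 3 with DMSO in MDA-MB-231. The MDA-MB-231 ratio of ABCA6 was 3.29 (exact 95% interval 0.821 to 18.9, counting error only) and was not called (adjusted p = 0.197), but passed the threshold without DMSO replicate 2 (adjusted p = 0.0156), which holds all 3 DMSO counts. ABCA9 had 2.08, 2.51, 1.88 and 2.08 CPM with YES1i in SUM159, against 0.372, 0, 0.0917 and 0.176 CPM with DMSO (log2 fold change 3.44, SE 0.51, adjusted p = 4.10e-06). The groups of ABCA9 did not overlap, and without DMSO replicate 1 its value was 4.45. ABCA9 passed the filter on low counts only through the SUM159 YES1i libraries (171 counts, against 18 with DMSO). This separation is therefore no independent support for the change. In MDA-MB-231 the counts of ABCA9 were 5, 0, 5 and 0 with YES1i and 0, 0, 0 and 0 with DMSO, at least 3.66-fold higher with YES1i (floor of 3 counts over the group). That call ended without YES1i replicate 1 (adjusted p = 0.0652) or 3 (0.0611), the libraries that hold all of its counts. ABCA10 had 1.96, 1.91, 2.16 and 2.47 CPM with YES1i and 2.09, 3.55, 2.16 and 2.82 CPM with DMSO in SUM159, and these groups overlapped (log2 fold change -0.29, SE 0.26, adjusted p = 0.368). In MDA-MB-231 the counts of ABCA10 were 6, 5, 1 and 4 with YES1i, against 1, 0, 0 and 2 with DMSO, a ratio of 5.85 (exact 95% interval 1.67 to 31.3, counting error only). It was called higher there (adjusted p = 0.0112) and in the difference between lines (adjusted p = 0.0122). Without DMSO replicate 4 these fold changes moved by more than 1.5-fold (log2 values of 3.28 and 3.56 in place of 2.38 and 2.67). ABCA5 and ABCA10 share 318 exonic bases on the same strand, so the low counts of either in the line where the other is abundant are uncertain.

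**Figure D5:**
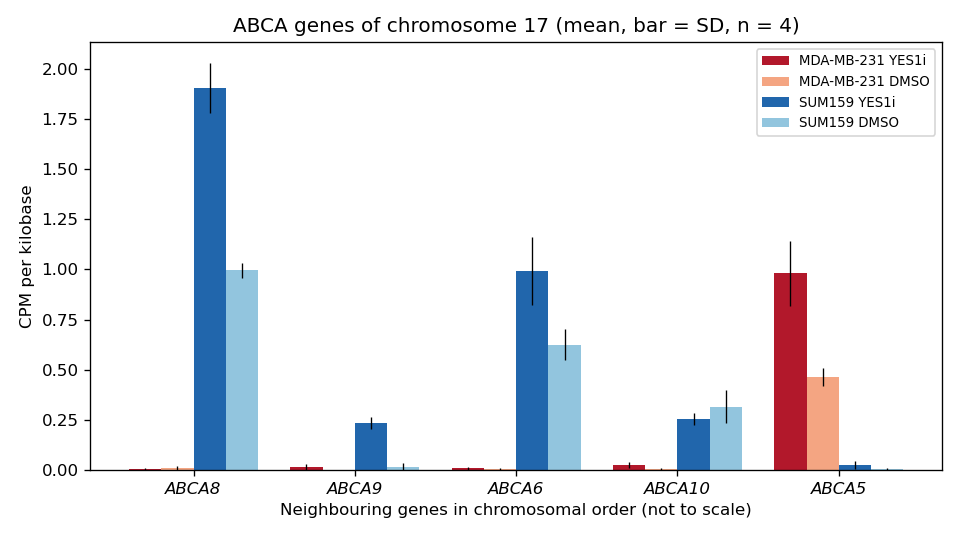
CPM per kilobase of the 5 neighbouring ABCA genes of chromosome 17 in chromosomal order (bars, mean; lines, SD, n = 4). ABCA8, ABCA9, ABCA6 and ABCA10 have bars mainly in SUM159 and ABCA5 in MDA-MB-231, where it reaches 0.980 with YES1i and 0.464 with DMSO.

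ABCA13, the longest protein of the subfamily, was abundant only in SUM159, where it had 17.6, 20.1, 19.5 and 18.9 CPM with YES1i and 15.5, 20.7, 16.7 and 19.9 CPM with DMSO in overlapping groups (log2 fold change 0.08, SE 0.13, adjusted p = 0.642). In MDA-MB-231 it had 0.172, 0.974, 0.864 and 0.850 CPM with YES1i and 0.194, 0.163, 0.380 and 0.228 CPM with DMSO (log2 fold change 1.54, SE 0.40, adjusted p = 0.0018). YES1i replicate 1 lay among the DMSO libraries of that line, and the other 3 lay above them. Between lines the difference was 1.47 (SE 0.42, adjusted p = 0.00764). ABCA4, which clears retinoids from photoreceptor discs, fell in MDA-MB-231, at 0.423 ± 0.200 CPM with YES1i and 0.917 ± 0.181 CPM with DMSO (log2 fold change -1.12, SE 0.38, adjusted p = 0.0161). This call was lost when low counts were not filtered (adjusted p = 0.0656), without DMSO replicate 1 (0.0614) and without YES1i replicate 4 (0.0762). In SUM159 ABCA4 averaged 0.211 ± 0.0766 CPM with YES1i and 0.172 ± 0.0631 CPM with DMSO, with no call. ABCG4, a sterol transporter of the brain, averaged 1.41 ± 0.332 CPM with YES1i and 1.82 ± 0.293 CPM with DMSO in MDA-MB-231, and 0.426 ± 0.241 CPM with YES1i and 0.511 ± 0.207 CPM with DMSO in SUM159, with no call in either line.

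Among organelle members of the ABCB subfamily, ABCB8 and ABCB10 of the mitochondrial inner membrane fell in both lines. ABCB8, part of a mitochondrial potassium channel, had 32.4, 24.6, 29.9 and 23.1 CPM with YES1i in MDA-MB-231, against 36.6, 39.5, 35.8 and 40.1 CPM with DMSO (log2 fold change -0.47, SE 0.09, adjusted p = 4.54e-05). The SUM159 libraries had 20.00, 16.8, 18.6 and 18.8 CPM with YES1i, against 35.5, 36.3, 40.9 and 37.3 CPM with DMSO (log2 fold change -1.02, SE 0.09, adjusted p = 1.02e-10). Neither pair of groups overlapped, and the DMSO libraries of the 2 lines overlapped. The fall was larger in SUM159, with a difference between lines, MDA-MB-231 minus SUM159, of 0.55 (SE 0.12, adjusted p = 9.10e-04). ABCB10, which supports haem synthesis in red cell precursors, averaged 36.9 ± 1.33 CPM with YES1i and 49.1 ± 2.61 CPM with DMSO in MDA-MB-231 (log2 fold change -0.41, SE 0.07, adjusted p = 2.63e-05). The SUM159 means were 36.4 ± 4.24 CPM with YES1i and 51.6 ± 3.44 CPM with DMSO (log2 fold change -0.50, SE 0.07, adjusted p = 1.28e-06).

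ABCB6, a porphyrin transporter, averaged 1.45 ± 0.272 CPM with YES1i and 1.47 ± 0.469 CPM with DMSO in MDA-MB-231 (adjusted p = 0.972). In SUM159 ABCB6 averaged 4.54 ± 0.429 CPM with YES1i and 2.45 ± 0.382 CPM with DMSO (log2 fold change 0.88, SE 0.19, adjusted p = 2.87e-04). The difference of -0.90 (adjusted p = 0.023) lost its call without MDA-MB-231 DMSO replicate 1 (-0.67, adjusted p = 0.0989) or YES1i replicate 3 (-0.79, adjusted p = 0.0583). A same-strand gene, AC068946.2, covers 54.7% of the exonic bases of ABCB6, so its counts are uncertain. ABCB9, a peptide transporter of lysosomes, averaged 20.4 ± 0.771 CPM with YES1i and 17.7 ± 1.03 CPM with DMSO in MDA-MB-231 (log2 fold change 0.21, SE 0.08, adjusted p = 0.0309). This call ended when low counts were not filtered (adjusted p = 0.213), when only the MDA-MB-231 libraries were fitted (0.0774) and without any of 4 libraries (up to 0.110). In SUM159 ABCB9 had a log2 fold change of -0.07 (adjusted p = 0.512).

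Of the ABCD members, ABCD3 fell and ABCD4 rose in both lines. ABCD3, the abundant peroxisomal membrane protein PMP70, averaged 75.7 ± 2.51 CPM with YES1i and 91.1 ± 4.19 CPM with DMSO in MDA-MB-231 (log2 fold change -0.27, SE 0.05, adjusted p = 1.06e-04). SUM159 cells averaged 36.5 ± 1.04 CPM with YES1i and 49.9 ± 1.99 CPM with DMSO (log2 fold change -0.45, SE 0.06, adjusted p = 7.94e-08). ABCD4, which works in lysosomal release of vitamin B12, averaged 72.01 ± 2.73 CPM with YES1i and 58.2 ± 1.74 CPM with DMSO in MDA-MB-231 (log2 fold change 0.31, SE 0.06, adjusted p = 8.81e-05). It averaged 24.4 ± 1.73 CPM with YES1i and 20.3 ± 1.12 CPM with DMSO in SUM159 (log2 fold change 0.27, SE 0.07, adjusted p = 0.00127). ABCD2, a peroxisomal fatty acid transporter, had 4 counts with YES1i and 3 with DMSO over all MDA-MB-231 libraries, and 1.56 ± 0.594 CPM with YES1i and 1.00 ± 0.125 CPM with DMSO in SUM159 (adjusted p = 0.139).

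Of the 4 ribosome-acting members, 3 fell in both lines, and ABCF3 passed the threshold in neither. ABCE1, which splits ribosomes into subunits after termination, averaged 99.7 ± 5.91 CPM with YES1i and 147 ± 6.55 CPM with DMSO in MDA-MB-231 (log2 fold change -0.56, SE 0.06, adjusted p = 3.54e-09). In SUM159 it averaged 131 ± 12.3 CPM with YES1i and 187 ± 6.67 CPM with DMSO (log2 fold change -0.52, SE 0.06, adjusted p = 1.57e-08). ABCF1, which binds initiation factor eIF2, averaged 200.5 ± 5.10 CPM with YES1i and 270.0 ± 5.90 CPM with DMSO in MDA-MB-231 (log2 fold change -0.43, SE 0.05, adjusted p = 5.61e-09). The SUM159 means were 97.6 ± 0.938 CPM with YES1i and 141 ± 8.09 CPM with DMSO (log2 fold change -0.54, SE 0.05, adjusted p = 1.30e-10). ABCF2 averaged 20.1 ± 1.79 CPM with YES1i and 28.8 ± 2.40 CPM with DMSO in MDA-MB-231 (log2 fold change -0.52, SE 0.09, adjusted p = 1.95e-05), and 19.2 ± 1.90 CPM with YES1i and 31.7 ± 3.52 CPM with DMSO in SUM159 (log2 fold change -0.72, SE 0.09, adjusted p = 9.31e-08). ABCF3, the relative of the yeast Gcn20 protein, had log2 fold changes of 0.04 (adjusted p = 0.618) and -0.13 (adjusted p = 0.0724). None of these 4 genes had a called difference between lines. ABCE1 shares 276 exonic bases with OTUD4 on the opposite strand, and OTUD4 had log2 fold changes of -0.24 in MDA-MB-231 and 0.06 in SUM159.

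ABCC9, a regulatory subunit of potassium channels, had 7.56, 9.01, 6.91 and 7.27 CPM with YES1i and 7.44, 9.29, 7.84 and 8.28 CPM with DMSO in SUM159, in overlapping groups (log2 fold change -0.09, SE 0.17, adjusted p = 0.711). In MDA-MB-231 it had counts of 21, 6, 9 and 15 with YES1i and 3, 3, 6 and 14 with DMSO, also overlapping, at 0.688 ± 0.383 CPM and 0.308 ± 0.229 CPM on average (log2 fold change 1.10, SE 0.41, adjusted p = 0.0264). That call ended when only the MDA-MB-231 libraries were fitted (adjusted p = 0.0704) and without any of 5 libraries, with values of 0.72 to 1.05. The lowest value was without YES1i replicate 1. Without DMSO replicate 4 the value was highest, at 1.74, and kept the call. Its difference between lines, 1.18 (adjusted p = 0.042), ended with RLE or upper quartile scaling and without any of 10 libraries, and was 1.82 without MDA-MB-231 DMSO replicate 4.

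The difference between lines in the YES1i change passed the threshold for 14 members, 10 of them higher and 4 lower in MDA-MB-231 than in SUM159, beside 19.1% and 12.1% of all tested genes. At least 2-fold differences numbered 5, beside 6.24% of all tested genes. The 10 were ABCA2, ABCA3, ABCA7, ABCA10, ABCA13, ABCB8, ABCC3, ABCC9, ABCC10 and ABCG2, and the 4 included ABCB6, ABCC1 and ABCC6. The 4 became 2 without MDA-MB-231 DMSO replicate 1 or YES1i replicate 3. RLE and upper quartile scaling each gave 8 higher and 4 lower. Of all called differences, 61.2% were higher in MDA-MB-231, and 43.9% with upper quartile scaling.

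With DMSO alone, 14 members were higher and 16 lower in MDA-MB-231 than in SUM159, beside 37.8% and 38.7% of all tested genes, and 16 differed at least 2-fold, as did 38.5% of all tested genes. ABCB1 was at least 98.3-fold lower in MDA-MB-231 (floor of 3 counts over the group). ABCC2 had a log2 difference of -5.51 (SE 0.12), ABCA8 of -6.75 (SE 0.28), ABCA13 of -6.17 (SE 0.23) and ABCC9 of -4.66 (SE 0.27), all lower in MDA-MB-231. ABCA8 had 6, 0, 2 and 0 counts in the MDA-MB-231 libraries, and without replicate 1 its difference was -8.16. Without MDA-MB-231 DMSO replicate 4 the value of ABCC9 was -5.30. ABCA6 stood at 3 counts in MDA-MB-231 and 771 in SUM159, a ratio of 0.00424 after scaling (exact 95% interval 0.000872 to 0.0124). ABCA10 stood at 3 and 223 counts, a ratio of 0.0146 (0.00300 to 0.0434), and ABCD2 at 3 and 92, a ratio of 0.0355 (0.00719 to 0.107). ABCA9 had no count in MDA-MB-231 and 13, 0, 2 and 3 counts in the SUM159 libraries, and was called lower in MDA-MB-231 (adjusted p = 0.00279, and 0.0272 without SUM159 DMSO replicate 1, which holds 13 of the 18 counts). All 3 MDA-MB-231 counts of ABCA6 were in replicate 2. Without MDA-MB-231 DMSO replicate 4 the fitted log2 difference of ABCA10 was -6.82 in place of -5.94, and without replicate 3 that of ABCD2 was -5.48 in place of -4.58. In the other direction ABCA5 had a log2 difference of 6.18 (SE 0.38), or 7.14 without SUM159 DMSO replicate 1, ABCC6 of 2.94 (SE 0.30), ABCA4 of 2.47 (SE 0.44) and ABCG4 of 1.90 (SE 0.35). ABCD4, ABCF1, ABCA3 and ABCD3 were higher in MDA-MB-231 by 1.52, 0.93, 0.88 and 0.87 on the log2 scale. ABCA7, ABCB9, ABCF3, ABCC10 and ABCC1 were higher by 0.85, 0.68, 0.63, 0.60 and 0.27. The log2 differences of ABCA2, ABCB6, ABCC4 and ABCE1, all lower in MDA-MB-231, were -0.77, -0.74, -0.48 and -0.35. ABCC3 had a log2 difference of -1.34 (SE 0.06) and ABCG2 of -0.26 (SE 0.11), and the ABCG2 call ended without any of 4 libraries (adjusted p up to 0.192). ABCB8, ABCB10, ABCC5 and ABCF2 did not pass the threshold between lines, with adjusted p of 0.838, 0.402, 0.107 and 0.153.

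The 9 members that failed the filter were ABCA12, ABCB4, ABCB5, ABCB11, ABCC8, ABCC11, ABCC12, ABCG5 and ABCG8. They include the bile salt exporter ABCB11, the sterol exporters ABCG5 and ABCG8, the skin ceramide transporter ABCA12 and the sulfonylurea receptor ABCC8. None exceeded 19 counts in any library. ABCA12 was the highest of them, with 35 counts with YES1i and 40 with DMSO over the SUM159 libraries and 2 with YES1i and 5 with DMSO in MDA-MB-231. ABCC8 had 1 count and ABCB5 2 counts in all 16 libraries.

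Other genes around these transporters were followed as lists. The counts of every list below can be read against all tested genes. For MDA-MB-231, 26.8% of these were called higher and 22.1% lower with YES1i. The SUM159 shares were 25.1% higher and 26.5% lower. Whether any list departed from these shares was not tested. TAP1 and TAP2 form the peptide transporter of antigen presentation and belong to the ABCB subfamily under other symbols, with CFTR of ABCC below the filter. Of TAP1 and TAP2, 1 rose and 1 fell in MDA-MB-231, and 0 rose and 1 fell in SUM159. TAP2 averaged 43.2 ± 1.84 CPM with YES1i and 78.1 ± 5.10 CPM with DMSO in MDA-MB-231 (log2 fold change -0.85, SE 0.06, adjusted p = 3.07e-12), and 46.1 ± 3.45 CPM with YES1i and 54.8 ± 2.95 CPM with DMSO in SUM159 (log2 fold change -0.25, SE 0.06, adjusted p = 0.00164). Of 17 tested genes of the glutathione and conjugation list, which also holds the vault protein MVP, 11 rose and 2 fell in MDA-MB-231, with a median of 0.62. In SUM159, 6 rose and 5 fell, with a median of 0.11. The largest called changes were those of the microsomal glutathione transferase MGST1 in MDA-MB-231 (log2 fold change 1.38, SE 0.08, adjusted p = 2.92e-12) and of GSTM2 in SUM159 (log2 fold change 3.05, SE 0.30, adjusted p = 1.11e-09). GSTM2 is one of several near-identical GSTM genes, so its counts are uncertain. Of 7 tested organic anion uptake genes, 2 rose and 0 fell in MDA-MB-231, led by SLCO4C1 (log2 fold change 4.01, SE 0.35, adjusted p = 7.08e-11), and 2 rose and 2 fell in SUM159, led by SLCO2A1 (log2 fold change 1.46, SE 0.10, adjusted p = 4.04e-13).

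Of 10 tested genes of ribosome recycling and termination, which work with ABCE1 and the ABCF proteins, 0 rose and 7 fell in MDA-MB-231 (median -0.18), and 1 rose and 6 fell in SUM159 (median -0.22). EIF2S1, a subunit of eIF2, had the largest change in MDA-MB-231 (log2 fold change -0.55, SE 0.05, adjusted p = 6.65e-11) and the release factor GSPT1 in SUM159 (log2 fold change -0.58, SE 0.05, adjusted p = 1.18e-11). Of 12 peroxisome genes, 7 rose and 0 fell in MDA-MB-231 (median 0.39), led by PHYH (log2 fold change 0.96, SE 0.09, adjusted p = 2.30e-10). ABCD3 fell in that line. In SUM159, 2 rose and 2 fell (median 0.08), led by catalase, CAT (log2 fold change 0.68, SE 0.05, adjusted p = 1.36e-11). Of 17 haem and iron-sulfur genes, 7 rose and 4 fell in MDA-MB-231 (median -0.04), led by ALAD (log2 fold change 0.65, SE 0.06, adjusted p = 1.78e-10), and 3 rose and 11 fell in SUM159 (median -0.22). Of 17 tested factors known to regulate ABC genes, 10 rose and 3 fell in MDA-MB-231 (median 0.26), and 4 rose and 6 fell in SUM159 (median -0.09). NR1H3, the sterol receptor LXR alpha, had the largest called change in both lines (log2 fold change 0.98, SE 0.08, adjusted p = 6.20e-11 in MDA-MB-231, and log2 fold change 0.94, SE 0.09, adjusted p = 1.15e-09 in SUM159).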

How the data were processed

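The deposited file is a single table of raw read counts for each gene and library, with names, positions and lengths. The submitters' processing notes list featureCounts 1.5.0-p3, hg38 and HISAT2 2.0.5 without saying what each did. How strand, reads in overlapping genes and reads with several matches were handled is not given. Gene IDs, starts and ends matched GENCODE 29 for all 58735 genes, and shared exonic bases were taken from it.

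Counts were tested with edgeR 4.0.16 (R 4.3.3, limma 3.58.1): filterByExpr with the 4 groups, TMM scaling, and a quasi-likelihood F test (robust) in which each of the 4 groups of the 16 libraries had its own mean. The Benjamini-Hochberg adjustment took in all 17647 tested genes of each contrast, with calls at an adjusted p under 0.05. The SE was derived from the F statistic. The steps were tested on simulated counts. Level per kilobase divides CPM by the deposited gene length, which need not be the length of the expressed transcript. Rankings and shares between genes depend on it. Of the 43 members, 31 overlap some gene and 10 overlap one with at least 10% of their own count.

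Values in every library are given for members called with a change or a difference between lines of at least 2-fold at 1 CPM or more in some group, and for ABCB1, ABCC1 and ABCG2. Of each list of genes around the transporters, single values are given only for the most changed called gene per line. Single values of 2 tested members and of 1 list gene are not reported here, though counts and sums include them. The members and lists were chosen with earlier results of these data known. Alternatives were scaling by upper quartile or RLE, DESeq2 1.42.0, no filter, a mean count of 10, a fit of one line, a replicate block and leaving out each library.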

Additional observations from a re-analysis of the deposited data

Results flagged for a closer look

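In 128 groups of 4 libraries, 1 library stood apart from the rest by Dixon's test in 4, and chance gives about 1 in 20 groups. ABCA13 had 0.172 CPM in MDA-MB-231 YES1i replicate 1, against 0.850 to 0.974 CPM in the other 3. ABCA4 had 0.325 CPM in SUM159 YES1i replicate 2, against 0.166 to 0.179 CPM in the others. ABCA6 had 0.163 CPM in MDA-MB-231 DMSO replicate 2 and 0 in the others, and ABCD4 had 21.9 CPM in SUM159 DMSO replicate 3, against 19.6 to 19.9 CPM.

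The YES1i change differed between the lines, by edgeR's test of the difference (MDA-MB-231 minus SUM159, log2 scale), for 14 members, of which 13 are given. It was 2.67 for ABCA10, 1.48 for ABCA7, 1.47 for ABCA13, 1.18 for ABCC9 and 0.86 for ABCC3. It was 0.61 for ABCG2, 0.55 for ABCA2, 0.55 for ABCB8, 0.45 for ABCA3 and 0.34 for ABCC10. It was -1.10 for ABCC6, -0.90 for ABCB6 and -0.47 for ABCC1.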

How the results depend on the processing

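No called single-gene result examined changed sign under any alternative run, and 71 of 84 kept their call under all of them. Counts of called members stayed within 1.5 times of those reported under RLE and upper quartile scaling, DESeq2, both other filters, a fit of one line and the replicate block. Leaving out 1 library gave 12 to 15 higher and 8 to 9 lower in MDA-MB-231, 11 to 14 and 8 to 9 in SUM159, 8 to 10 and 2 to 5 for the difference (2, against 4, without MDA-MB-231 DMSO replicate 1 or YES1i replicate 3), and 14 to 15 and 15 to 16 between lines with DMSO.

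Values that changed sign were all uncalled. They included that of ABCF3 in MDA-MB-231 in a fit of one line (-0.014). With upper quartile scaling ABCB9 and ABCC9 in SUM159 were 0.047 and 0.035. On leaving out 1 library, ranges were -0.00074 to 0.15 for ABCA13 and -0.57 to 0.12 for ABCG4 in SUM159. In MDA-MB-231 they were -1.28 to 0.62 for ABCA8, -0.14 to 0.22 for ABCB6, -0.79 to 1.39 for ABCD2 and -0.15 to 0.014 for ABCG2. The cause was not tested.

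Libraries of 2 groups with the same replicate number had correlations of -0.107 to 0.050 in the check of pairing. At most 2 of 4 correlated best with their own number, so no clear pairing by number was seen. These are not correlations of log2 CPM, for which the highest value of a library with another group was 0.975 to 0.978. With the replicate block, 14 members were higher and 9 lower in MDA-MB-231, 13 and 8 in SUM159, 9 and 4 for the difference, and 14 and 16 between lines. The block ended the call of the ABCC9 difference (adjusted p = 0.0577) and no other. Depth limits the low members: the MDA-MB-231 calls of ABCA9 and ABCA10 rest on 10 and 16 counts with YES1i.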
